A study of Homo sapiens with 6 samples.

Results

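Integrins are the receptors through which a cell holds the matrix around it. Each is a pair of an α and a β chain, the α chain sets which matrix protein is bound, and the β chain links to the actin skeleton inside the cell. The integrin β1 chain (ITGB1) has more α partners than any other β chain, and through them it binds collagen, laminin and fibronectin. In the mammary gland, β1 integrins anchor basal cells to the basement membrane that surrounds the duct.

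The genes described here were ITGB1, 8 α subunits that pair with it (ITGA1, ITGA2, ITGA3, ITGA4, ITGA5, ITGA9, ITGA10 and ITGA11) and the tetraspanin CD151, which holds laminin-binding integrins in membrane complexes. These 10 genes were picked by symbol from a table of 58676 genes, and each had 1 row in it. RNA sequencing compared 3 non-silencing (NS) control samples with 3 BCL9 knockdown (BCL9 KD) samples of DCIS.COM, an established human cell line used as a model of basal ductal carcinoma in situ (DCIS). Both groups carried a lentiviral PLKO.1 vector, with a non-silencing shRNA in NS control and an shRNA against BCL9, a co-activator of β-catenin, in BCL9 KD, and both were selected with puromycin and grown in T75 flasks in DMEM/F12 with horse serum. The study's methods give a single BCL9 shRNA sequence for the knockdown, so lower BCL9 and other effects of that shRNA cannot be told apart. Each sample came from its own flask. The flasks were described as biological replicates, and p-values measure the spread between flasks within each group. The groups are separately transduced lines, so a difference between the lines cannot be told apart from the knockdown.

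BCL9 itself was at 6.25, 6.24 and 5.34 FPKM (reads per gene, scaled to gene length and to the reads counted in the sample) in NS control and at 2.86, 2.78 and 2.59 FPKM in BCL9 KD, without overlap. Its log2 fold change was −0.99 (SE 0.0933, limma adjusted p = 0.00773). It was not called with the replicate number as a block (limma adjusted p = 0.0656), nor with NS control replicate 2, BCL9 KD replicate 2 or BCL9 KD replicate 3 left out, when 12, 13 and 5 genes of all were called. The samples held between 15222452 and 26949026 reads, recovered from FPKM and gene length. Deviations of single samples from their group mean followed the GC content of the genes, the share of G and C bases in their transcripts, in NS control. The rank correlation was 0.60 in NS control replicate 1, −0.263 in replicate 2 and −0.542 in replicate 3, against −0.123 to 0.138 in BCL9 KD. All 9 basal and epithelial markers were expressed, at a summed 1545 to 1820 FPKM in NS control and 1530 to 1615 FPKM in BCL9 KD. No marker of the 9 passed the limma threshold (3 at an unadjusted p under 0.05, and none by voom on the recovered reads). The 6 fibroblast markers summed to between 0.694 and 0.905 FPKM and the 4 leukocyte markers to at most 0.0583 FPKM in any sample. Among 3 endothelial markers, PECAM1 was called higher in BCL9 KD (2.28, 2.29 and 1.72 FPKM against 3.91, 3.11 and 3.32 FPKM, limma adjusted p = 0.0477), while CDH5 and VWF were at or under 0.0534 FPKM in every sample. PECAM1 was called under 7 of 18 alternatives, with a limma adjusted p of 0.104 with the replicate block and of 0.186 at the highest.

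To show the DNA in front of a collagen receptor of these cells, the 250 bases before the RefSeq start of each of its 2 chains, ITGB1 and ITGA2, are given on the gene's own strand in GRCh38.p14. The ITGB1 window is chr10:32958231-32958480 on the minus strand and the ITGA2 window is chr5:52989102-52989351 on the plus strand. Capitals mark the GC box GGGCGG, the core letters to which the factor SP1 binds, on either strand.
ITGB1: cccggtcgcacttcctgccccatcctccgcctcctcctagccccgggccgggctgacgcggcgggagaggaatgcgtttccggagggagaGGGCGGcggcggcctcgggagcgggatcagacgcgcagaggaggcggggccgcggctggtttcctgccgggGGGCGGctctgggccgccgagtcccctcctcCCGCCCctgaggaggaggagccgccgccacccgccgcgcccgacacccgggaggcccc
ITGA2: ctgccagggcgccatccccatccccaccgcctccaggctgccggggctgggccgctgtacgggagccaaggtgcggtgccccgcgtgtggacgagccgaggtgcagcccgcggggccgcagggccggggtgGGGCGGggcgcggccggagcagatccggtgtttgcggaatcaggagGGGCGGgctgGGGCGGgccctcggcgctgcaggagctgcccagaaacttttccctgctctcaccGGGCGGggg
The ITGB1 window held 3 GC boxes and the ITGA2 window held 4, in sequence with 78.4% and 76.4% G and C. A second ITGB1 start in the table, with the window from 32935559 to 32935808, held no GC box and 41.6% G and C. Of 35116 such windows over all genes, 42.6% held at least 1. The promoter table had 8 windows for 7 of the genes, with 2 for ITGB1. ITGA3, ITGA9 and CD151 had no entry. None of the 8 windows held the STAT letters TTCNNNGAA, which are in 6.57% of all windows. The TCF/LEF letters CTTTGA, searched on both strands, were in the ITGA1 window alone among the 8, and are in 11.2% of all windows. A match in letters is not a measured binding site.

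**Figure D1:**
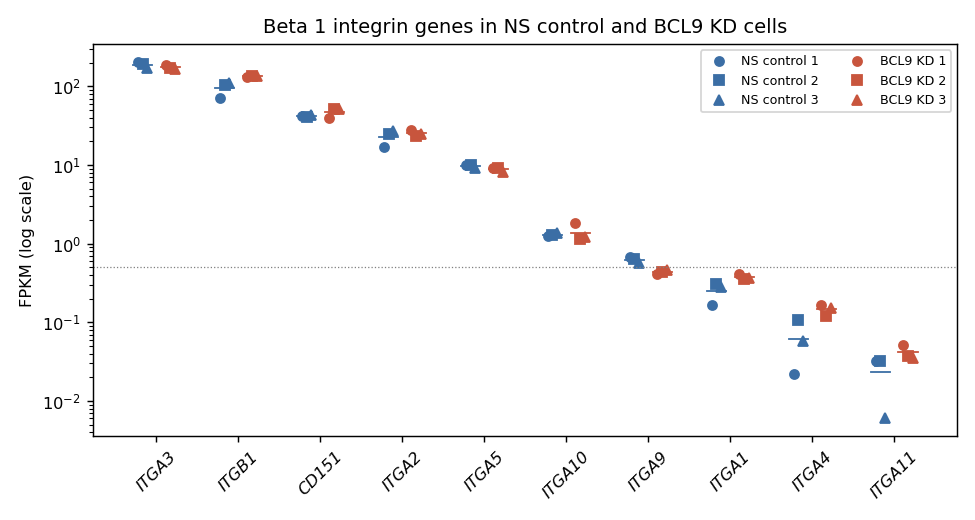
FPKM (log axis) of the 10 genes in the 3 NS control samples (blue) and the 3 BCL9 KD samples (red), ordered by level, where each symbol is a replicate, each short line is the group mean and the dotted line is the filter at 0.5 FPKM. ITGA3 lies highest, between 167 and 205 FPKM, and ITGA1, ITGA4 and ITGA11 lie under the filter in all 6 samples.

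The mRNA for these receptors spanned a wide range. Per length of gene, the order of mean levels was ITGA3, ITGB1, CD151, ITGA2, ITGA5, ITGA10, ITGA9, ITGA1, ITGA4 and ITGA11, and it was the same in both groups. Sample ranges of neighbours in that order did not touch, except those of ITGA4 and ITGA11 in NS control and those of ITGA9 and ITGA1 in BCL9 KD. The laminin receptor chain ITGA3 alone gave 81.6% to 87.6% of the summed FPKM of the 8 α subunits in NS control and 82.6% to 83.2% in BCL9 KD. The collagen receptor chain ITGA2 gave 7.17% to 12.9% and 11.4% to 12.1%, and the fibronectin receptor chain ITGA5 gave 4.28% to 4.40% and 4.01% to 4.38%. Each of the other 5 chains gave under 1% of the sum in every sample.

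To determine whether BCL9 knockdown changed these genes, each was compared between the groups with limma on log2(FPKM + 0.5). Of the 10 genes, 7 had a mean of at least 0.5 FPKM over the 6 samples and were tested among 13745 genes. None of the 7 passed an adjusted p under 0.05 in either direction, by limma or by voom on recovered reads. By limma 1 of them, ITGB1, had an unadjusted p under 0.05, and by voom ITGB1 and ITGA9 did. Over all tested genes, 5.87% passed by limma, 2.96% as higher and 2.91% as lower in BCL9 KD, and voom called 10.2%. Of all 13745, 3775 (27.5%) had an unadjusted p under 0.05 by limma and 4195 by voom. The median log2 fold change of the 7 was 0.05, beside 0.04 over all tested genes, with 4 above 0 and 3 below. Looking at samples alone, the groups did not overlap for 6 of the 10 genes. Of the 7 tested genes, ITGB1 was higher in every BCL9 KD sample than in every NS control sample, as were 17.8% of all tested genes, and ITGA5 and ITGA9 were lower in every BCL9 KD sample, as were 16.4%. The 3 genes under the filter, ITGA1, ITGA4 and ITGA11, were all higher in every BCL9 KD sample, as were 10.3% of the 4521 genes under the filter with reads in all 6 samples.

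**Figure D2:**
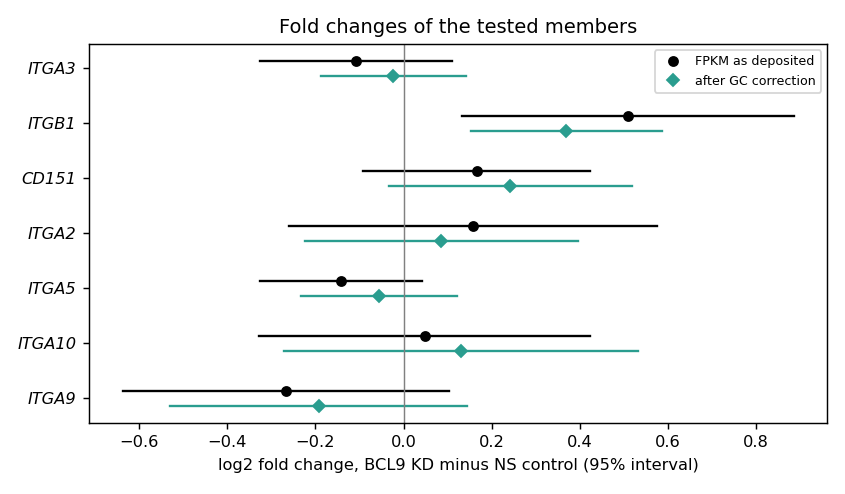
Log2 fold change (BCL9 KD minus NS control) of the 7 tested genes with its 95% interval from limma, for FPKM as deposited (black circles) and after the GC correction (green diamonds). ITGB1 is the one gene whose interval lies above 0 in both, and no interval lies below 0.

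ITGB1 (ENSG00000150093) lies on the minus strand of chromosome 10 from 32900319 to 33005792 in GRCh38. It was at 71.8, 103 and 112 FPKM in the 3 NS control samples, in the order of their replicate numbers, and at 129.9, 136 and 136 FPKM in the 3 BCL9 KD samples. Values of other genes follow the same order. All BCL9 KD samples were above all NS control samples, BCL9 KD samples lay close together, and NS control replicate 1 was the lowest of the 6. The mean was 95.4 ± 21.0 FPKM in NS control and 134 ± 3.35 FPKM in BCL9 KD (SD, n = 3 each), a ratio of 1.40 that rested on 9804 to 21978 reads per sample. The log2 fold change was 0.51 (SE 0.159, 95% interval 0.13 to 0.89) and did not pass the threshold (limma adjusted p = 0.0997). The two-sided exact permutation test gave p = 0.1, the smallest that 3 samples against 3 allow.

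Of the 18 alternatives, 2 carried ITGB1 past the threshold, the GC correction and leaving out NS control replicate 3. Its transcripts hold 40.5% G and C against a median of 48.5% over tested genes, and 15.3% of tested genes were lower. After a correction that removed the trend with GC content from each sample, ITGB1 was at 91.1, 112 and 113 FPKM in NS control and at 129.3, 139 and 138 FPKM in BCL9 KD. The groups still did not overlap, the log2 fold change was 0.37 and the gene was called higher (limma adjusted p = 0.0446), where 7.29% of all tested genes were called higher. With the replicate number added as a block to that correction the adjusted p was 0.0643. Without NS control replicate 3, ITGB1 was called higher, at 0.64 on the log2 scale (limma adjusted p = 0.0479), where 6.61% of tested genes were. Without NS control replicate 1 the log2 fold change was 0.32 (limma adjusted p = 0.0507). It was above 0 under all 18 alternatives, with limma adjusted p from 0.0446 to 0.271.

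**Figure D3:**
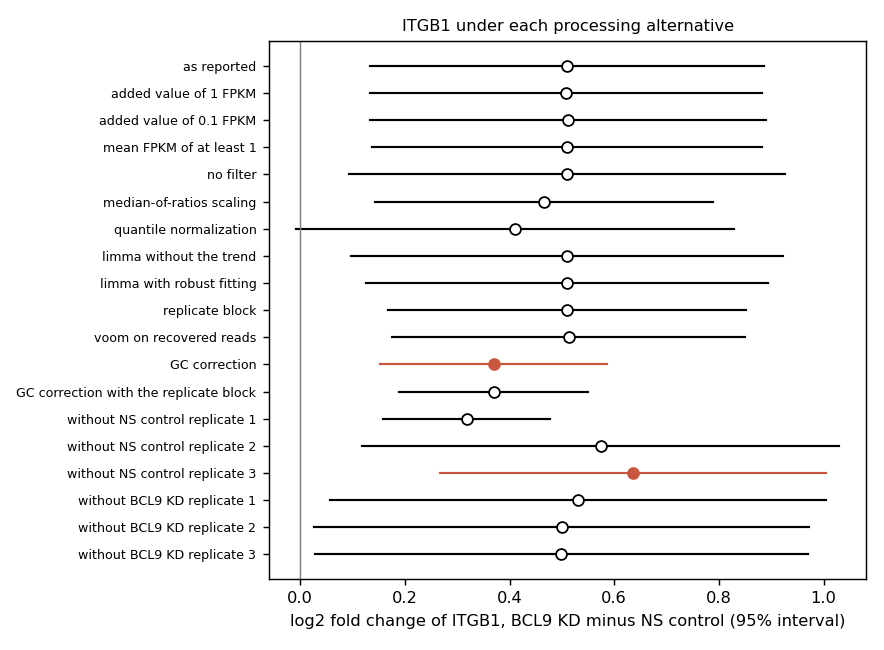
Log2 fold change of ITGB1 (BCL9 KD minus NS control) with its 95% interval, as reported and under each of 18 processing alternatives, where filled red symbols have an adjusted p under 0.05 and open symbols do not. All estimates lie above 0, between 0.32 and 0.64, and 2 alternatives are called.

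A processed pseudogene with sequence like ITGB1, ITGB1P1 on chromosome 19, could share reads with it. ITGB1P1 had 11, 12 and 16 reads in NS control and 21, 38 and 13 reads in BCL9 KD, few beside those of ITGB1. Whether reads were shared between the genes was not tested. The genes whose pattern over the 6 samples was most like that of ITGB1 were EIF2A, SSFA2, TCEA1, PRKAR1A and ERO1A. Their Pearson correlations with it on the log2 scale were 0.998, 0.998, 0.998, 0.996 and 0.996 over 6 samples, out of 4029 genes with a mean of at least 10 FPKM. EIF2A, for example, was at 24.4, 32.3 and 35.3 FPKM in NS control and at 41.0, 41.9 and 42.0 FPKM in BCL9 KD, with the same low control sample. The 5 genes hold 39.3% to 41.7% G and C, close to ITGB1, and all points share the same 6 libraries. ITGA2, with a correlation of 0.79 with ITGB1, ranked 724 of the 4029, CD151 (0.52) ranked 1359 and ITGA3 (−0.80) ranked 3099, so none stood out.

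The α chains that make collagen receptors with ITGB1 are ITGA1, ITGA2, ITGA10 and ITGA11, and ITGA2 held nearly all of the mRNA of this group. ITGA2 (ENSG00000164171, chromosome 5, plus strand, 52989326 to 53094779) was at 16.8, 25.1 and 27.0 FPKM in NS control and at 27.6, 23.6 and 24.5 FPKM in BCL9 KD. The groups overlapped, and NS control replicate 1 was again the lowest sample. The log2 fold change was 0.16 (95% interval −0.26 to 0.58, limma adjusted p = 0.581), and without that sample it was −0.05. ITGA10 (ENSG00000143127, chromosome 1, minus strand, 145891208 to 145910189), a chain best known from cartilage, was at 1.25, 1.31 and 1.36 FPKM in NS control and at 1.81, 1.15 and 1.202 FPKM in BCL9 KD. BCL9 KD replicate 1 was above all other samples and the other BCL9 KD samples were below all controls, so the groups overlapped. The log2 difference of 0.05 (95% interval −0.33 to 0.42, limma adjusted p = 0.867) was −0.11 without BCL9 KD replicate 1 and −0.02 after quantile normalization.

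ITGA1 and ITGA11, the other collagen-binding chains, were scarce. ITGA1 (ENSG00000213949, chromosome 5, plus strand, 52787896 to 52959210) had 70, 115 and 79 reads in NS control (0.166, 0.306 and 0.280 FPKM) and 137, 179 and 108 reads in BCL9 KD (0.417, 0.358 and 0.371 FPKM). Each BCL9 KD value was above each NS control value. Tested without a filter on low values, it was at 0.24 on the log2(FPKM + 0.5) scale (limma adjusted p = 0.461), which understates changes of low genes, beside a ratio of mean FPKM of 1.53. ITGA1 overlaps PELO, a ribosome rescue gene on the same strand at 5.05 to 6.16 FPKM, and reads in the shared stretch could be split between the pair or dropped. ITGA11 (ENSG00000137809, chromosome 15, minus strand, 68296533 to 68432162), a fibroblast collagen receptor chain, had 8, 7 and 1 reads in NS control and 10, 11 and 6 reads in BCL9 KD. At such counts the counting error of a single value is near the difference itself, so no difference is read from them. The FPKM values, from 0.00605 to 0.0324 in NS control and from 0.0353 to 0.0521 in BCL9 KD, did not overlap. Without a filter it was at 0.05 on the same scale (limma adjusted p = 0.618), where the added 0.5 FPKM far exceeds the values themselves, beside a ratio of mean FPKM of 1.78.

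ITGA3 (ENSG00000005884, chromosome 17, plus strand, 50055968 to 50090481) forms the α3β1 receptor for laminin of the basement membrane and was the highest of the 10 genes. It was at 205, 193 and 171 FPKM in NS control and at 188, 171 and 167 FPKM in BCL9 KD, so the groups overlapped. The means were 189.6 ± 17.5 and 176 ± 11.1 FPKM (SD, n = 3 each), and the log2 fold change of −0.11 (95% interval −0.32 to 0.11, limma adjusted p = 0.470) was below the spread between flasks. It was −0.05 without NS control replicate 1, −0.02 after the GC correction and −0.28 after quantile normalization (unadjusted p = 0.036, limma adjusted p = 0.147). Within NS control, ITGA3 was highest in the sample in which ITGB1 was lowest. ITGA3 transcripts hold 59.1% G and C.

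The α chains that bind fibronectin or related ligands are ITGA4, ITGA5 and ITGA9. ITGA5 (ENSG00000161638, chromosome 12, minus strand, 54395261 to 54419460), the main fibronectin receptor chain, was at 10.01, 10.07 and 9.21 FPKM in NS control and at 9.14, 9.04 and 8.23 FPKM in BCL9 KD. Each BCL9 KD value was below each NS control value, but by little, and the log2 fold change was −0.14 (SE 0.0778, 95% interval −0.33 to 0.04, limma adjusted p = 0.278). After the GC correction it was −0.06 and the groups overlapped, at 7.60, 8.61 and 8.26 FPKM in NS control and 8.27, 7.92 and 7.30 FPKM in BCL9 KD. ITGA9 (ENSG00000144668, chromosome 3, plus strand, 37452115 to 37823514), which binds tenascin C among others, was at 0.676, 0.633 and 0.571 FPKM in NS control and at 0.410, 0.435 and 0.463 FPKM in BCL9 KD. The groups did not overlap, and the log2 fold change on the same scale was −0.27 (95% interval −0.64 to 0.10, limma adjusted p = 0.307). With voom on the recovered reads, which adds no such value, it was −0.53 (voom adjusted p = 0.067). ITGA9 was tested only because its NS control values lifted the mean over the filter, since every BCL9 KD value was under 0.5 FPKM. These values rest on 60 to 127 reads. An antisense gene, ITGA9-AS1, overlaps it and had 22 to 46 reads, and whether reads were counted by strand is not given in the sources used here. ITGA4 (ENSG00000115232, chromosome 2, plus strand, 181457202 to 181536187), a chain best known from leukocytes that binds VCAM1 and fibronectin, had 4, 17 and 7 reads in NS control and 23, 26 and 19 reads in BCL9 KD. The FPKM values were 0.0223, 0.106 and 0.0582 against 0.165, 0.122 and 0.154, higher in every BCL9 KD sample. Without a filter it was at 0.20 on the same scale (limma adjusted p = 0.298), beside a ratio of mean FPKM of 2.36.

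CD151 (ENSG00000177697, chromosome 11, plus strand, 832843 to 839831) was at 42.2, 40.6 and 43.6 FPKM in NS control and at 40.1, 51.0 and 51.7 FPKM in BCL9 KD. BCL9 KD replicate 1 was below all controls and the other BCL9 KD samples above them. The log2 fold change was 0.17 (95% interval −0.09 to 0.42, limma adjusted p = 0.354), and it was 0.28 without BCL9 KD replicate 1 and 0.10 without BCL9 KD replicate 3. CD151 overlaps POLR2L, an RNA polymerase subunit gene on the opposite strand. POLR2L was at 38.4, 34.9 and 38.8 FPKM in NS control and at 48.8, 78.8 and 75.3 FPKM in BCL9 KD, and it was called higher (log2 fold change 0.82, limma adjusted p = 0.0477). Like CD151, it was lower in BCL9 KD replicate 1 than in the other BCL9 KD samples. The part of POLR2L reads in the CD151 values was not tested.

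Since every α chain needs a β chain to reach the surface, the level of each α chain was also given per ITGB1 within the same sample, a ratio that does not depend on how samples are scaled to each other. With ITGB1 higher in every BCL9 KD sample, most genes had lower ratios to it there: of the other tested genes, 56.2% were lower per ITGB1 in every BCL9 KD sample than in every NS control sample. Such a ratio was therefore common, and the same pattern in ITGA2, ITGA3, ITGA5 and ITGA9 (two-sided exact permutation p = 0.1 for each, the smallest possible) is given as values and is not particular to α chains. ITGA2 per ITGB1 was 0.234, 0.245 and 0.242 in NS control and 0.213, 0.174 and 0.181 in BCL9 KD. This log2 difference of −0.35 was −0.37 without NS control replicate 1. ITGA2 and ITGB1 are alike in GC content (42.1% and 40.5%).

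ITGA3 per ITGB1 was 2.86, 1.88 and 1.53 in NS control and 1.45, 1.26 and 1.23 in BCL9 KD. The log2 difference was −0.62, and it was −0.37 without NS control replicate 1, the sample with the highest ratio. ITGA5 per ITGB1 was 0.139, 0.0981 and 0.0823 in NS control and 0.0704, 0.0666 and 0.0607 in BCL9 KD, a log2 difference of −0.66 that was −0.45 without that sample. The log2 difference was −1.03 for ITGA9, which passed the filter through its NS control values. It was −0.45 for ITGA10, with overlap (two-sided exact permutation p = 0.3), and moved to −0.29 without NS control replicate 1 and to −0.68 without BCL9 KD replicate 1. The 8 α chains summed to 234, 231 and 209 FPKM in NS control and 228, 206 and 202 FPKM in BCL9 KD, which is 3.26, 2.25 and 1.87 per ITGB1 against 1.76, 1.52 and 1.49. The log2 difference of that summed ratio was −0.60, and −0.37 without NS control replicate 1. Within NS control, the ratios of GC-rich ITGA3 and ITGA5 to ITGB1 were highest in replicate 1 and lowest in replicate 3, as was the GC trend. Ratios were not taken after the GC correction, and the part of GC content in them was not tested. All ratios share the ITGB1 values, so they are not separate results.

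**Figure D4:**
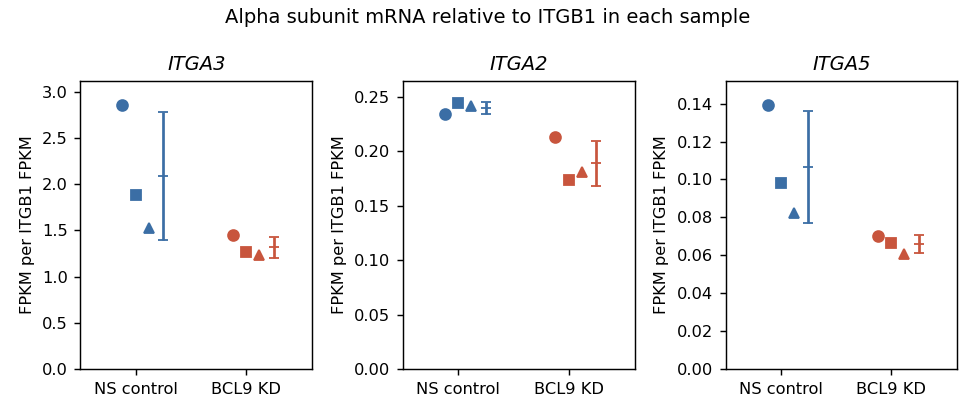
FPKM of ITGA3, ITGA2 and ITGA5 divided by the FPKM of ITGB1 in the same sample, for 3 NS control (blue) and 3 BCL9 KD (red) samples, with circles, squares and triangles for replicates 1, 2 and 3 and bars for the mean and SD. In each panel all BCL9 KD samples lie below all NS control samples, and for ITGA3 and ITGA5 NS control replicate 1 lies far above the rest.

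Other genes of the same receptor system were taken as 9 lists of partners, regulators and ligands, chosen with earlier results of these data known. Of their 80 genes, 59 were tested, and 3 were called higher and 7 lower in BCL9 KD (16.9% called, beside 5.87% over all tested genes). All 10 kept their direction under the 18 alternatives. None of the 10 was called with the replicate block (limma adjusted p = 0.0656 to 0.128), nor without any one of the same 3 samples as for BCL9.

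**Figure D5:**
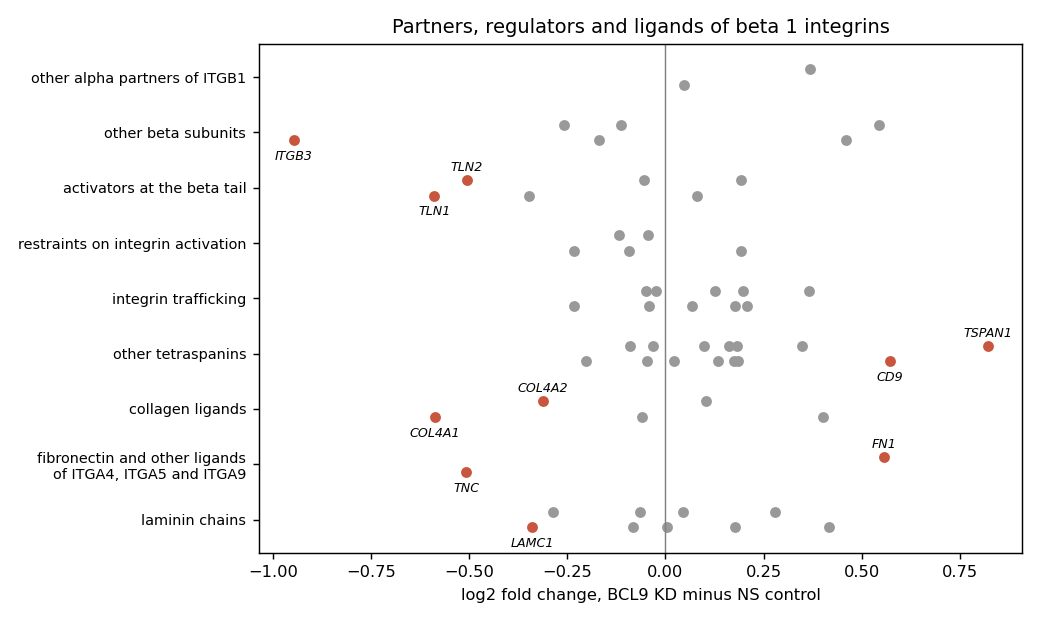
Log2 fold change (BCL9 KD minus NS control) of the 59 tested genes in 9 lists of partners, regulators and ligands of β1 integrins, where each point is a gene and named red points have an adjusted p under 0.05. Of the 10 red points, 3 lie above 0 and 7 below.

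Among the other α partners of ITGB1, 2 of 4 were tested and none was called (none at an unadjusted p under 0.05, and none by voom). ITGA6, the laminin receptor chain that also pairs with β4, was at 329, 442 and 421 FPKM in NS control and at 439, 392 and 393 FPKM in BCL9 KD. ITGAV, the chain of vitronectin receptors, was at 0.37 on the log2 scale (limma adjusted p = 0.430). Of the other β subunits, 1 of 6 tested was lower. It was ITGB3, the β chain of the vitronectin receptor αVβ3, with no BCL9 KD sample reaching the lowest control (log2 fold change −0.95, limma adjusted p = 0.00942). By voom 2 of the 6 were called (10.2% of all tested genes were), and 3 had an unadjusted p under 0.05 by limma (27.5% of all). ITGB2, the leukocyte β chain (0.46 on the log2 scale, limma adjusted p = 0.0530), and ITGB6, the β chain of αVβ6 (0.54, limma adjusted p = 0.17), were higher in every BCL9 KD sample, and ITGB5, another β chain that pairs with αV, was lower in every one (−0.17, limma adjusted p = 0.202), where 17.8% and 16.4% of all tested genes showed no overlap in these directions. The difference between the changes of ITGB1 and ITGB3 was not tested.

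Of the 6 tested activators that bind β tails or recruit those that do, 2 were lower, both of them talins, the actin linkers that switch integrins on. TLN1 fell from 64.9, 56.5 and 48.7 FPKM to 40.5, 35.4 and 36.2 FPKM (log2 fold change −0.59, limma adjusted p = 0.0387). TLN2 fell from 12.4, 12.7 and 11.5 FPKM to 9.33, 7.96 and 8.08 FPKM (log2 fold change −0.51, limma adjusted p = 0.0305). The kindlins, which act beside talin, were not called, with log2 fold changes of −0.06 for FERMT1 and −0.35 for FERMT2. The median of the 6 was −0.20. None of the 5 restraints on activation was called (none at an unadjusted p under 0.05, and none by voom), with a median of −0.09. Of 10 genes of integrin trafficking none was called by limma, and 1 had an unadjusted p under 0.05 and was called by voom. RAB25, a GTPase of integrin recycling, was highest in change among them at 0.37 on the log2 scale (limma adjusted p = 0.0612).

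Among the tetraspanins other than CD151, 2 of 14 tested were higher and none lower. CD9, which associates with β1 integrins, rose from 35.3, 32.5 and 30.0 FPKM to 43.2, 51.5 and 51.5 FPKM (log2 fold change 0.57, limma adjusted p = 0.0306). TSPAN1 rose from 21.1, 17.2 and 19.5 FPKM to 32.5, 34.9 and 35.4 FPKM (log2 fold change 0.82, limma adjusted p = 0.0109). The groups did not overlap for either gene, and the median of the 14 was 0.15. CD63, CD82 and TSPAN3, the highest of those not called, were at 0.17, −0.20 and −0.03 on the log2 scale.

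The matrix ligands were called in both directions. Of 5 tested collagen chains 2 were lower, both of them type IV collagen of the basement membrane, and 3 of the 5 were called by voom. COL6A1, a chain of type VI collagen, was higher in every BCL9 KD sample (0.40 on the log2 scale, limma adjusted p = 0.0718). COL4A1 fell from 28.1, 32.1 and 30.6 FPKM to 20.8, 19.5 and 19.7 FPKM (log2 fold change −0.59, limma adjusted p = 0.0152). COL4A2 fell from 68.1, 70.5 and 66.4 FPKM to 57.1, 55.3 and 52.4 FPKM (log2 fold change −0.31, limma adjusted p = 0.0456), and it was not called after the GC correction (limma adjusted p = 0.0823). Only 2 of the 8 ligands of ITGA4, ITGA5 and ITGA9 were tested, and they differed in direction. FN1, fibronectin, rose from 37.9, 40.2 and 36.4 FPKM to 64.0, 54.8 and 51.0 FPKM (log2 fold change 0.56, limma adjusted p = 0.0313). TNC, tenascin C, fell from 42.5, 47.4 and 41.5 FPKM to 32.1, 30.6 and 29.1 FPKM (log2 fold change −0.51, limma adjusted p = 0.0235). Of 9 tested laminin chains 1 was lower, LAMC1, from 116, 125 and 114 FPKM to 99.6, 90.4 and 90.4 FPKM (log2 fold change −0.34, limma adjusted p = 0.0466). LAMA3, an α chain of basement membrane laminin, was at 0.42 on the log2 scale (limma adjusted p = 0.0565) and the β chain LAMB3 at −0.08.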

How the data were processed

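RNA from 3 NS control and 3 BCL9 KD samples of DCIS.COM was sequenced as paired ends. The authors used STAR for alignment to hg38 and HTSeq 0.6.1 for read counts of each gene (names and build from the submitters' processing notes), and deposited FPKM for 58676 genes, beside other values, the gene lengths used for it. FPKM times length gave whole reads in every sample (tolerance 0.1), hence the depth, and reads without molecular identifiers make counting error only part of the error. Gene positions matched GRCh38.p14 for 18005 of 18005 genes compared.

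Samples were grouped by their labels. The authors' methods name DESeq2 and edgeR. The deposited unit being FPKM, limma 3.58.1 (R 4.3.3) with an empirical Bayes trend was fitted here to log2(FPKM + 0.5) of the 13745 genes whose mean was at least 0.5 FPKM, with Benjamini-Hochberg adjustment over all of them, and an exact permutation test was added for single values. The 10 genes and the lists were chosen with earlier results of these data known. Named genes are the 10, BCL9, every called list gene, up to 4 high genes of a list and the 5 genes most like ITGB1. RAB25, FERMT2, ITGB2, CD82, COL6A1, LAMA3, POLR2L, PELO, ITGA9-AS1, ITGB1P1 and PECAM1 fall outside that rule or came with a check, and their choice followed a look at the values. The 18 alternatives covered the added value, the filter, scaling, the variance model, the replicate block, voom on recovered reads, GC correction (loess, span 0.3, GRCh37 transcripts, GC known for 98.8% of tested genes) and leaving out each sample. The comparison was tested on simulated data. Promoter sequences came from RefSeq (GRCh38.p14). Tables and plots used matplotlib 3.10.9, scipy 1.17.1, pandas 2.3.3 and numpy 2.4.6 in Python 3.11.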

Additional observations from a re-analysis of the deposited data

How the results depend on the processing

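The number of genes called, 807 as reported, was 142 with no filter, 536 with median-of-ratios scaling, 332 without the limma trend, 1403 with voom, 1745 with the GC correction and 360 when the replicate block was added to that correction. Leaving out a sample gave between 5 and 1712. With the replicate block alone it was 0, with 3235 at an unadjusted p under 0.05. Same-numbered samples did not deviate together (correlations of −0.147, −0.0884 and −0.00287 across genes), so the numbers were not taken to pair the samples. The share of higher calls, 50.4%, was 66.9% with the correction and block together and 61.7% without BCL9 KD replicate 1, and it was 43.4% with quantile normalization (1083 called) and 44.4% with median-of-ratios scaling. Of the 10 genes described here, 1 was called with the GC correction and 0 to 1 when a sample was left out. ITGB1 was at 0.37 with the GC correction and at 0.32 to 0.64 with a sample left out. BCL9 stayed at −0.99 with the block but was not called (limma adjusted p = 0.0656), and was between −1.06 and −0.95 with a sample left out, not called without NS control replicate 2, BCL9 KD replicate 2 or BCL9 KD replicate 3. ITGA2 reversed to −0.0483 without NS control replicate 1 (range −0.05 to 0.29 with a sample left out). ITGA10 reversed to −0.0202 with quantile normalization and to −0.11 without BCL9 KD replicate 1 (range −0.11 to 0.14). The cause of these changes was not tested. CD151, ITGA3, ITGA5 and ITGA9 kept their direction and were not called under any alternative that tested them, though values moved: ITGA3 lay between −0.28 and −0.02, ITGA5 between −0.18 and −0.06, CD151 between 0.10 and 0.28 and ITGA9 between −0.53 and −0.18. Of the 10 called genes in the lists, 9 were called with the GC correction, 6 with median-of-ratios scaling, 4 without the limma trend and 3 with no filter. ITGA4 and ITGA11 rest on only 1 to 26 reads a sample, and the effect of depth on them was not tested.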
